A study of Mus musculus with 8 samples.

Results

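The signal transducer and activator of transcription (STAT) genes Stat2, Stat3, Stat4, Stat5a, Stat5b and Stat6 were examined in tumor-associated macrophages (TAMs) with and without the microRNA miR-21. They were chosen by gene symbol, with earlier results of these data known, and make up 6 of the 53247 genes in the table. LLC cells (Lewis lung carcinoma, a mouse line) were implanted s.c., TAMs were taken from the tumors by flow sorting on F4/80, CD11b, MHC II and CD45, and their mRNA was sequenced. The groups were 4 samples from WT mice and 4 samples from miR-21-/- mice (labelled miR-21 null). All mice were C57/BL6 by their labels and 10 weeks old, and all tumors had grown for 14 days. The deletion was carried by every cell of the miR-21-/- mice and not by macrophages alone, while the implanted tumor cells were the same line in both genotypes. For miR-21-/- replicate 1 the title carries a double number, which may or may not mean a pool of mice, and it counts as 1 sample here.

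STAT proteins wait in the cytoplasm until a cytokine binds its receptor and the Janus kinases (JAKs) on that receptor phosphorylate them. They then pair, enter the nucleus and bind DNA, and SOCS proteins, phosphatases and PIAS proteins shut the signal off. In macrophages, STAT6 carries the signal of IL-4 and IL-13, STAT3 that of IL-10 and of the IL-6 family, STAT2 that of type I interferon, and the paired STAT5 proteins that of GM-CSF, whereas STAT4 is best known for IL-12 signalling in T and NK cells.

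Among the 6 genes, Stat3 and Stat2 were higher in miR-21-/- TAMs, by 1.28-fold and 1.25-fold, and all 4 miR-21-/- samples lay above all 4 WT samples for each. Stat4 was 0.729-fold the WT level, with 1 miR-21-/- sample inside the WT range. Stat5a, Stat5b and Stat6 lay within 8% of the WT level. None of the 6 passed the threshold used for single genes, an adjusted p at or under 0.005 with a fold change over 1.5.

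The sequence of miR-21 is shown because the genotypes differ in it and because matches to its seed (bases 2 to 8, in capitals) can be looked for in the 6 transcripts. It is the 22-base mature form from RefSeq on GRCm38.p6, chr11:86584120-86584141, minus strand.
mmu-miR-21a-5p: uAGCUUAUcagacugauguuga

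The 3′ UTR of each gene (the longest of its coding transcripts in GENCODE vM21, on GRCm38) was searched for the letters ATAAGCTA (8 bases), ATAAGCT or TAAGCTA (7 bases) and TAAGCT (6 bases). No STAT 3′ UTR held the 8-base match. Stat3 held 2 matches of 7 bases in its 3701-base 3′ UTR, Stat5a held 1 in 1173 bases and Stat5b held 1 in 2365 bases. Stat2 and Stat6 held only 1 match of 6 bases each, and the 253-base 3′ UTR of Stat4 held none. A 7- or 8-base match was present in 11.1% of the 21011 genes with a 3′ UTR, and in 28.7% of those between 0.8 and 1.25 times the length of that of Stat3. The like shares for the lengths of Stat5a and Stat5b were 7.88% and 18.5%. A match is a description of letters and not a measured binding site. The 4 matches of 7 bases, in capitals with their flanks, lie at chr11:100887212-100887218 and chr11:100886514-100886520 (Stat3, minus strand), chr11:100884321-100884327 (Stat5a, plus strand) and chr11:100781143-100781149 (Stat5b, minus strand).
Stat3 first: agttatacaATAAGCTgaacttata
Stat3 second: tggagtcagATAAGCTccctaatgg
Stat5a: ttttactccTAAGCTAgaagcttcg
Stat5b: catagttttTAAGCTAccctggatt

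The 6 genes lie on 3 chromosomes in GRCm38. Stat2 (chr10:128270559-128292849, plus strand) and Stat6 (chr10:127642986-127660957, plus strand) are 609.6 kb apart. Stat5b (chr11:100780731-100850724, minus strand), Stat5a (chr11:100859351-100885169, plus strand) and Stat3 (chr11:100885098-100939540, minus strand) sit side by side, and Stat4 (chr1:51987148-52107189, plus strand) stands alone on chromosome 1. The 3′ ends of Stat5a and Stat3 overlap by 72 bases on opposite strands, and the strand setting of the counting is not given in the sources used here. Transcripts of Stat5a and Stat5b shared 608 stretches of 50 bases, 8.21% of those of Stat5a and 10.98% of those of Stat5b, so that the split of reads between this pair is uncertain. Mir21a, which is also on chromosome 11 (chr11:86584067-86584158, minus strand), is 14.2 to 14.3 Mb from the Stat5b-Stat5a-Stat3 cluster. It was listed at 0.0001 CPM, the constant added to every value, in all 8 samples, and so offers no check of the genotypes.

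Levels are in CPM (counts per 1e+06 reads) as deposited. By the steps between low values, the libraries ranged from 20.2 to 33.4 reads in units of 1e+06, and the least abundant member, Stat4, was read about 376 to 678 times per library. The 10 macrophage markers summed to 9672 to 11970 CPM per sample and none was under 1 CPM in all samples. Differences were fitted with limma on log2(CPM + 1) over the 13850 genes that passed a filter on low values (mean level no lower than 1 per 1e+06 of the listed total), and all 6 STAT genes passed it. Fold changes are miR-21-/- over WT on this scale, where the added 1 shrinks the fold of genes with few reads. Over all tested genes, the median of these log2 differences was -0.10. Replicates are labelled as biological, but whether each came from its own mouse is not stated, and p-values measure only the spread between these samples. In sorted cells measured in bulk, fewer cells of a type and less RNA per cell cannot be told apart.

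STAT3, which carries IL-10 and IL-6 family signals, had the largest difference relative to its spread. Stat3 was at 216, 240.3, 242 and 234 CPM in WT samples 1 to 4. It was at 320.2, 290.1, 291 and 296 CPM in miR-21-/- samples 1 to 4. The lowest miR-21-/- sample was thus well above the highest WT sample. Means of 233 ± 12.1 and 299 ± 14.2 CPM (SD, n = 4 each) gave a log2 fold change of 0.36 (95% confidence interval 0.23 to 0.49, limma adjusted p = 0.00133). The adjusted p was under 0.005, as for 14.3% of all tested genes, and the fold change of 1.28 was under the limit of 1.5. With no filter on low values the adjusted p of Stat3 from limma was 0.00516, and with the replicate number as a block it was 0.00717.

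STAT2 joins IRF9 in the complex ISGF3, which switches on interferon-stimulated genes. Stat2 was at 148, 123, 130.4 and 153 CPM in WT samples and at 197, 166, 166 and 164 CPM in miR-21-/- samples. The groups did not overlap, and miR-21-/- replicate 1 stood above the other miR-21-/- samples. Means of 139 ± 14.3 and 173 ± 15.6 CPM (SD, n = 4 each) gave a log2 fold change of 0.32 (95% confidence interval 0.13 to 0.51, limma adjusted p = 0.0158). Without miR-21-/- replicate 1 the log2 fold change was 0.26 and the limma adjusted p was 0.0352. Groups that did not overlap with higher miR-21-/- values were found in 2 of the 6 STAT genes and in 9.44% of all tested genes.

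STAT4 is activated by IL-12 and, in T and NK cells, drives interferon-γ. Stat4 was at 22.7, 23.4, 19.7 and 23.4 CPM in WT samples. It was at 18.1, 12.3, 14.4 and 19.998 CPM in miR-21-/- samples. Of the miR-21-/- samples, 3 lay below the WT range, and replicate 4 lay inside it, just above WT replicate 3. Means of 22.3 ± 1.79 and 16.2 ± 3.47 CPM (SD, n = 4 each) gave a log2 fold change of -0.46 (95% confidence interval -0.75 to -0.16, limma adjusted p = 0.0238). The limma adjusted p was above 0.05 without WT replicate 2 (0.0620), without miR-21-/- replicate 2 (0.0510) and without miR-21-/- replicate 3 (0.0637), after quantile normalization (0.0817), after rescaling by the median of ratios (0.0835) and with no filter on low values (0.0731). The summed level of 13 T and NK cell markers, beside these values, was 35.9, 50.9, 42.8 and 45.4 CPM in WT samples and 79.2, 39.8, 24.5 and 56.3 CPM in miR-21-/- samples. The miR-21-/- samples lowest in Stat4, replicates 2 and 3, were also the lowest of their group in these markers, while replicates 1 and 4 held more marker RNA than any WT sample, with 18.1 and 19.998 CPM of Stat4. The markers in this sum did not move together. Cd4 ranged from 5.93 to 29.99 CPM in WT samples, where its mean was 16.6 CPM, and from 0.845 to 3.40 CPM in miR-21-/- samples. The part of T and NK cells in the Stat4 values was not tested.

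STAT5A and STAT5B are closely related proteins that answer to GM-CSF and to cytokines that use the common γ chain. Stat5a was at 33.5, 34.7, 38.0 and 37.6 CPM in WT samples and at 39.4, 40.3, 39.5 and 35.6 CPM in miR-21-/- samples. The groups overlapped through miR-21-/- replicate 4. The log2 fold change was 0.10 (95% confidence interval -0.04 to 0.25, limma adjusted p = 0.228), which leaves room for a level between 0.974 and 1.19 times that of WT. Stat5b was at 83.4, 92.1, 92.0 and 96.1 CPM in WT samples and at 86.7, 82.2, 84.8 and 99.7 CPM in miR-21-/- samples. The groups overlapped over most of their range. The log2 fold change was -0.04 (95% confidence interval -0.20 to 0.11, limma adjusted p = 0.669), a level between 0.871 and 1.08 times that of WT.

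STAT6, the IL-4 and IL-13 factor of alternatively activated macrophages, had the tightest replicates. Stat6 was at 244, 243, 249.7 and 236 CPM in WT samples and at 241, 227, 235 and 229 CPM in miR-21-/- samples. Of the miR-21-/- samples, 3 lay just below the lowest WT sample. The means were 243 ± 5.82 and 233 ± 6.19 CPM (SD, n = 4 each). The log2 fold change was -0.06 (95% confidence interval -0.16 to 0.04, limma adjusted p = 0.340), a level between 0.892 and 1.03 times that of WT. Of the 6 genes, Stat6 therefore had the narrowest interval.

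**Figure D1:**
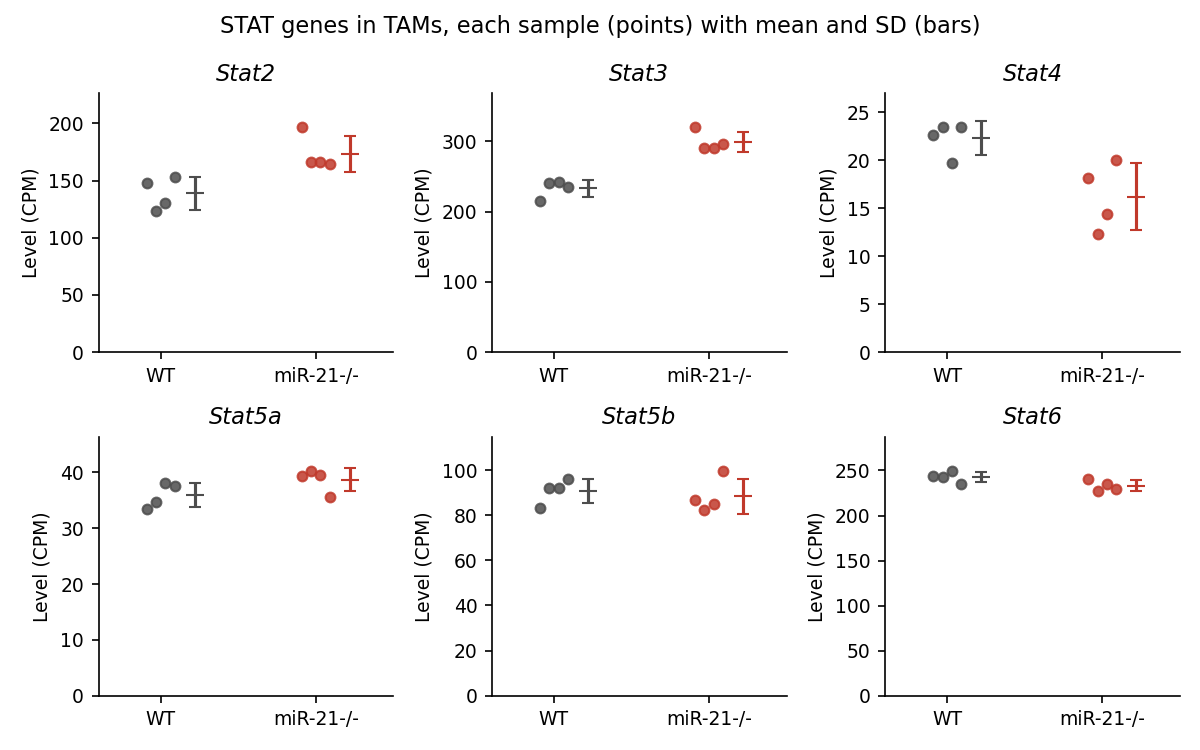
Level of each STAT gene in CPM (vertical axes from 0) in 4 WT and 4 miR-21-/- TAM samples; points are samples, horizontal marks means and whiskers SD. For Stat2 and Stat3 every miR-21-/- sample lies above every WT sample, and for Stat4 3 of 4 lie below.

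In limma's test 0 of the 6 STAT genes passed an adjusted p of 0.005 with a fold change over 1.5, against 7.12% of all tested genes. With no limit on the fold change and an adjusted p at or under 0.05, 3 of the 6 were called, Stat2 and Stat3 higher and Stat4 lower. All tested genes gave 36.0% by the same rule, 9.49% higher and 26.5% lower in miR-21-/- TAMs. At an unadjusted p under 0.05 the count was 3 of 6 again, against 46.4% of all tested genes. The 3 calls at an adjusted p of 0.05 became 2 without WT replicate 2, miR-21-/- replicate 2 or miR-21-/- replicate 3, which in each case dropped Stat4. The share of STAT genes called was thus close to the background. Relative to the median of all tested genes, the log2 differences were 0.46 for Stat3, 0.42 for Stat2, 0.21 for Stat5a, 0.06 for Stat5b, 0.04 for Stat6 and -0.35 for Stat4.

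How the samples are put on a common scale bears on the smaller differences. Rescaling by the median of ratios brought the median of all genes to -0.0030, and the log2 fold changes were then 0.43 for Stat2, 0.47 for Stat3, -0.35 for Stat4, 0.21 for Stat5a, 0.07 for Stat5b and 0.05 for Stat6. After quantile normalization they were 0.31, 0.31, -0.35, 0.19, -0.0029 and -0.10 in the same order. Stat5a passed an adjusted p of 0.05 under both, with a limma adjusted p of 0.0279 and 0.0448. Stat5b and Stat6 changed sign under the median of ratios, so no direction can be given for either. Stat2, Stat3 and Stat5a stayed higher and Stat4 lower under all 3 scalings.

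**Figure D2:**
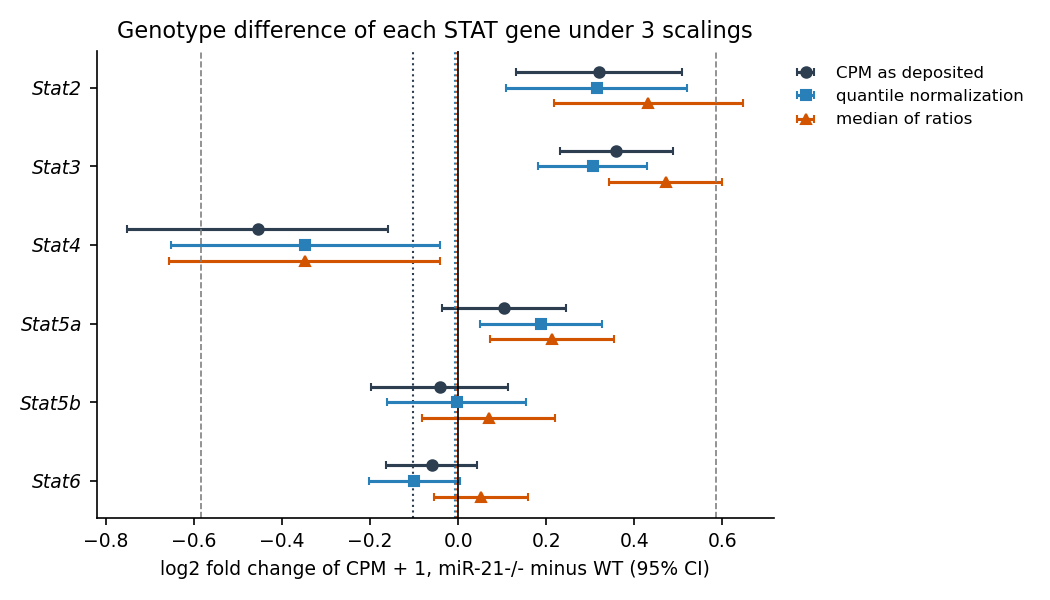
Log2 fold change of CPM + 1 (miR-21-/- minus WT, horizontal axis) of each STAT gene with its 95% confidence interval, for the deposited CPM, quantile normalization and the median of ratios; dotted lines mark the median of all tested genes under each scaling and dashed lines the 1.5-fold limit. Stat2 and Stat3 lie to the right of zero and Stat4 to the left under all 3, while Stat5b and Stat6 lie close to zero.

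The ratio of a pair of STAT genes within a sample is nearly free of such scaling. All 15 pairs were compared between genotypes with two-sided exact permutation tests of the mean log2 ratio. In 7 of the 15 pairs the ratios of the genotypes did not overlap. These were Stat3 over Stat4, Stat5a, Stat5b and Stat6, Stat2 over Stat4 and Stat6, and Stat4 over Stat5b. All 7 hold Stat2, Stat3 or Stat4, whose own differences enter these ratios. The share among pairs of other genes was not computed, so the count of 7 has no background beside it. The log2 ratio of Stat3 to Stat6 went from -0.06 ± 0.08 in WT to 0.36 ± 0.04 in miR-21-/- samples (SD, n = 4 each), a difference of 0.42 or 1.34-fold (exact permutation p = 0.0286). The log2 ratio of Stat3 to Stat5b went from 1.35 ± 0.05 to 1.75 ± 0.14 (exact permutation p = 0.0286). The widest difference was that of Stat3 to Stat4, 0.81, followed by that of Stat2 to Stat4, 0.78. By contrast the ratio of Stat2 to Stat3 differed by -0.04 (exact permutation p = 0.714) and that of Stat5b to Stat6 by 0.02 (exact permutation p = 0.8286). A p of 0.0286 is the smallest that 4 samples against 4 allow, and adjusted over the 15 pairs (Benjamini-Hochberg) it became 0.0612, so that 0 pairs passed 0.05 after adjustment. Without miR-21-/- replicate 4, 12 pairs did not overlap and 9 passed an adjusted p of 0.05. The pairs share genes and are not independent of one another.

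**Figure D3:**
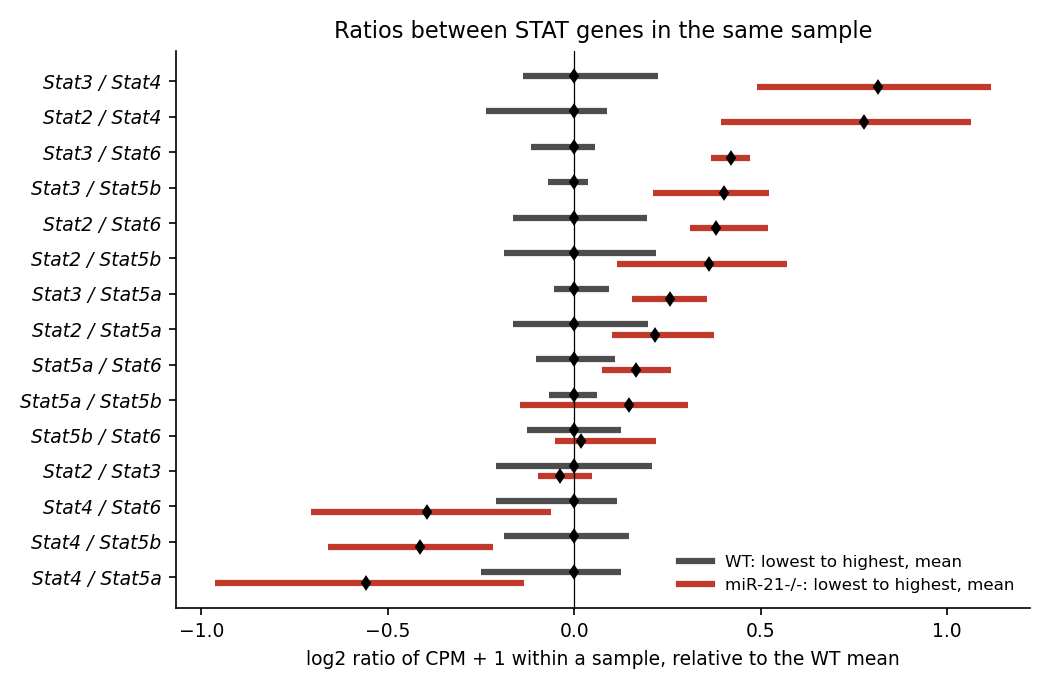
Log2 ratio of CPM + 1 between each pair of STAT genes within a sample, relative to the WT mean of that ratio; bars run from the lowest to the highest of the 4 samples and diamonds mark means. The bars of the genotypes do not overlap for 7 of the 15 pairs, all of which hold Stat2, Stat3 or Stat4.

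Levels can be compared between genes only per length, for which CPM was divided by the length in kb of all annotated exons of the gene joined. In WT TAMs Stat6 was the highest of the 6 at 55.2 ± 1.32 CPM per kb (SD, n = 4). Stat3 followed at 24.5 ± 1.27 and Stat2 at 23.4 ± 2.42 CPM per kb, and this pair overlapped across samples. Stat5b was at 16.4 ± 0.968 CPM per kb, apart from both neighbours. Stat4 at 5.76 ± 0.462 and Stat5a at 5.04 ± 0.310 CPM per kb were lowest and overlapped. In miR-21-/- TAMs the first 4 ranks were in the same order, with Stat6 at 52.9 ± 1.41, Stat3 at 31.4 ± 1.49, Stat2 at 29.2 ± 2.63 and Stat5b at 16.0 ± 1.40 CPM per kb. Stat3 and Stat2 again overlapped. The last ranks were exchanged, with Stat5a at 5.43 ± 0.296 and Stat4 at 4.19 ± 0.896 CPM per kb, which overlapped. Stat6 was 2.26 times Stat3 per length in WT and 1.68 times in miR-21-/- TAMs.

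The order at the bottom depends on the length. With the longest annotated transcript of each gene instead, Stat5a (9.09 ± 0.559 CPM per kb, SD, n = 4) lay above Stat4 (7.48 ± 0.600) in WT TAMs without overlap, and Stat3 (38.6 ± 2.01) lay above Stat2 (31.5 ± 3.26) without overlap. Stat6 stayed the highest at 64.4 ± 1.54 CPM per kb.

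**Figure D4:**
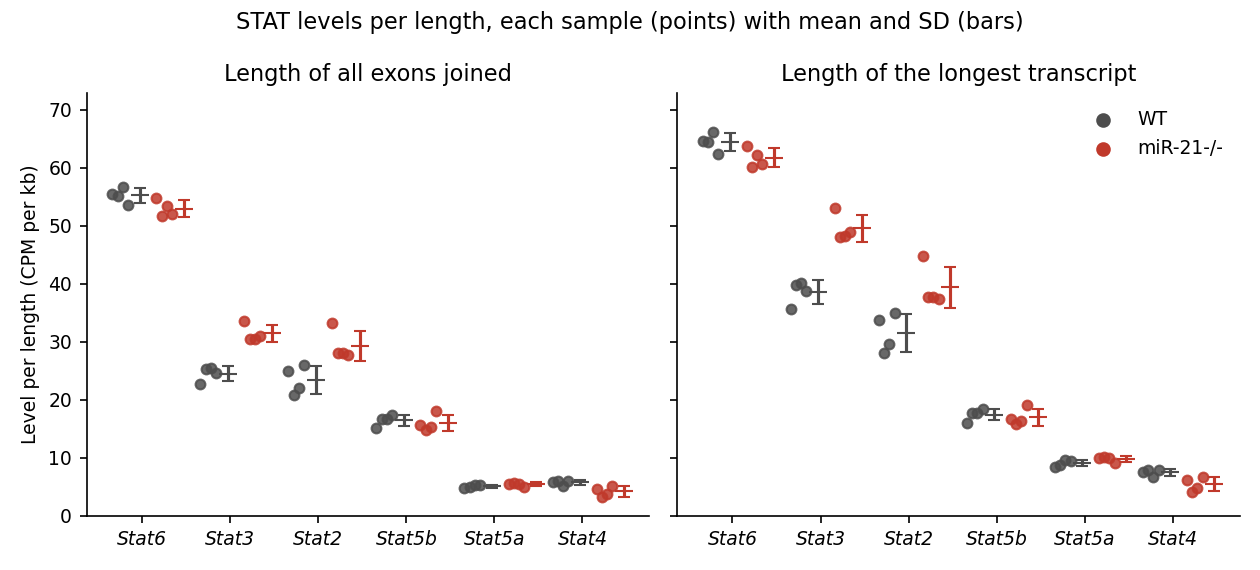
Level per length (CPM per kb, vertical axis from 0) of the STAT genes in each sample, with the length of all exons joined at the left and of the longest transcript at the right; points are samples, marks and whiskers mean and SD. Stat6 is highest and Stat4 and Stat5a lowest in both genotypes with either length.

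Promoter windows (250 bases before to 50 after a gene start, RefSeq on GRCm38.p6) were examined for Stat3, Stat4, Stat5a, Stat5b and Stat6, 8 windows in all. They were searched on both strands for 3 motifs. These were GAAANNGAAA, the core of the interferon-stimulated response element (ISRE) that ISGF3 binds, TTCNNNGAA, the GAS element of STAT dimers, and TTCNNNNGAA, its form with a 4-base spacer that STAT6 prefers. Over all 32851 windows these letters were present in 3.44%, 8.30% and 6.95%. At Stat4 the window of an internal start, chr1:52007990-52008289 on the plus strand, held an ISRE core 97 bases upstream, with the letters GAAAGTGAAA. The windows of Stat3, Stat5a, Stat5b and Stat6 held none of the 3 motifs, which says only that these letters are not in these windows.

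For each STAT gene, the 3 tested genes nearest in pattern were found by the root mean square difference of mean-centred log2(CPM + 1) over the 8 samples. For Stat2 they were Slfn1 (0.044), Xaf1 (0.046) and 5830432E09Rik (0.048), against a spread of 0.20 for Stat2 itself. For Stat3 they were Parp4 (0.046), Zyx (0.048) and Rufy3 (0.051), against a spread of 0.19. For Stat4 they were Traf3ip3, Pilrb2 and Nme3, at 0.10 to 0.11 from Stat4 with a spread of 0.30. Those of Stat5a (Mtmr9, Pde6d and Ppib), Stat5b (AC139941.1, Tln1 and Grk6) and Stat6 (Chd8, Parg and Vps51) were at 0.024 to 0.042, but the spreads of these 3 STAT genes were themselves only 0.089, 0.094 and 0.044. With 8 samples and 13850 genes, near neighbours are found for any pattern.

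Genes upstream and downstream of the STATs were taken from lists of general knowledge. Of 132 listed genes, 112 were tested and 14 passed the threshold of an adjusted p at or under 0.005 with a fold change over 1.5 in limma. Of these, 11 rose and 3 fell in miR-21-/- TAMs, where the background is 2.89% higher and 4.23% lower. The median log2 fold change of the 112 genes was 0.03, beside -0.10 for all tested genes.

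Of 21 cytokine genes that signal through STATs, only 8 were tested, since the rest were too low in sorted TAMs. Il27, one chain of IL-27, rose from 4.33 ± 1.33 to 9.48 ± 1.16 CPM (log2 fold change 1.00, limma adjusted p = 0.00129, and 0.00522 without miR-21-/- replicate 3). Its partner chain Ebi3 fell from 34.7 ± 5.47 to 21.9 ± 1.44 CPM (log2 fold change -0.63, limma adjusted p = 0.00137). The Ebi3 call was lost without WT replicate 3, WT replicate 4 or miR-21-/- replicate 2, where the log2 fold change was -0.62, -0.54 and -0.60, and under both other scalings, at -0.54 and -0.52. The 2 chains of the same cytokine thus moved in opposite directions. Ifng, the gene of interferon-γ, stood highest in the list with a log2 fold change of 1.11, at 0.464 ± 0.292 and 2.26 ± 1.07 CPM (limma adjusted p = 0.00554), and passed without miR-21-/- replicate 3 (0.00180), after quantile normalization (0.00456) and with a pseudocount of 0.1 (0.00485). At this low level its log2 fold change followed the pseudocount, at 2.07 with 0.1 and 0.22 with 10.

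Of 27 receptor chains tested, 6 passed the threshold higher and 2 lower, beside 2.89% and 4.23% of all tested genes. At an adjusted p of 0.05 with no fold limit the split was even, 9 higher and 9 lower, where all tested genes gave 9.49% and 26.5%. Il7r, the IL-7 receptor chain, rose from 11.96 ± 4.14 to 54.0 ± 11.7 CPM (log2 fold change 2.12, limma adjusted p = 0.000140). Il12rb1, the chain shared by the receptors of IL-12 and IL-23, rose from 15.6 ± 3.78 to 59.2 ± 7.06 CPM (log2 fold change 1.88, limma adjusted p = 1.90e-05). Il21r rose by 1.33 on the log2 scale and Il4ra, the chain through which IL-4 and IL-13 reach STAT6, by 0.75 (limma adjusted p = 0.00119, and 0.00823 with no filter on low values, which loses the call). Lifr, the leukemia inhibitory factor receptor, fell from 73.9 ± 19.0 to 19.7 ± 1.33 CPM (log2 fold change -1.83, limma adjusted p = 2.16e-05). Ifngr1, the ligand-binding chain for interferon-γ, fell by 0.72 on the log2 scale. The other two calls were Il2rg, the common γ chain, and Il15ra, both higher. The median of the 27 was 0.0036.

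None of the 4 JAK genes passed the threshold in limma, and 1 had an unadjusted p under 0.05, a limit met by 46.4% of all tested genes. This was Jak2, with WT samples at 69.7 ± 3.20 CPM and miR-21-/- samples at 97.1 ± 6.09 CPM (SD, n = 4 each, groups not overlapping), with a log2 fold change of 0.47 (limma adjusted p = 0.000348), short of the 1.5-fold limit. Its adjusted p was under 0.005, as for 14.3% of all tested genes. Jak1 (0.01), Jak3 (-0.05) and Tyk2 (-0.05) had log2 fold changes near zero whose sign turned with the scaling.

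Of 17 inhibitors, 1 passed the threshold, near the 7.12% of all tested genes. At an adjusted p of 0.05 with no fold limit, 4 were higher and 2 lower, beside 9.49% and 26.5% of all tested genes. Socs1, which blocks JAKs directly and is itself switched on by cytokine signals, rose from 5.18 ± 1.09 to 26.2 ± 5.36 CPM (log2 fold change 2.14, limma adjusted p = 1.66e-05). The lowest value was that of Socs2, -0.34 (limma adjusted p = 0.192). The median of the list was -0.05. Among 10 nuclear partners and carriers, 1 passed, again near 7.12%. This was Nmi, which binds STAT proteins and rose by 0.64 on the log2 scale. The lowest value there was that of Ndufa13, a mitochondrial subunit also known to bind STAT3, at -0.18. Irf9, the DNA-binding partner of STAT2, was at 71.4 ± 3.38 and 73.6 ± 5.42 CPM (log2 fold change 0.04, limma adjusted p = 0.635) and is named here after its values were seen.

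The target lists overlap with other pathways, and none of their genes is read by 1 STAT alone. Of 16 interferon-stimulated targets of ISGF3, 0 passed the threshold in limma and 4 had an unadjusted p under 0.05, where all tested genes gave 46.4%. At an adjusted p of 0.05 with no fold limit, 3 were higher and 1 lower, beside 9.49% and 26.5% of all tested genes. The highest was Rsad2, which encodes viperin, at 74.7 ± 19.6 and 124 ± 19.9 CPM (log2 fold change 0.75, limma adjusted p = 0.00835). It passed with the replicate block (limma adjusted p = 0.00236) and with arrayWeights (0.00490). The lowest was Oas2, at 106.5 ± 12.0 and 77.1 ± 12.7 CPM (log2 fold change -0.47, limma adjusted p = 0.00975). Members of one interferon response thus lay on both sides of zero, with a median of 0.13.

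Of 15 STAT3 targets, 2 passed, both higher, beside 2.89% of all tested genes. At an adjusted p of 0.05 with no fold limit, 5 were higher and 2 lower, beside 9.49% and 26.5% of all tested genes. Myc, one of those lower, was at 86.7 ± 8.36 and 61.2 ± 4.97 CPM without overlap (log2 fold change -0.49, limma adjusted p = 0.00123), under the fold limit. Those higher but under the fold limit were Socs3 (log2 fold change 0.44, limma adjusted p = 0.00245), Pim1 (0.49, 0.00133) and Nfil3 (0.28, 0.0209). Hif1a, the oxygen-regulated transcription factor, rose from 228 ± 36.8 to 467 ± 63.5 CPM (log2 fold change 1.03, limma adjusted p = 0.000248), and the other was Il4ra. Fos was lowest at -0.52 (limma adjusted p = 0.0418) and passed only without WT replicate 2, at -0.72. The list's median was 0.10.

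None of 7 STAT4 targets passed in limma, with 5 at an unadjusted p under 0.05, beside 46.4% of all tested genes. Ifng was the highest of them, Hlx the lowest at -0.14 (limma adjusted p = 0.0936), and the median was 0.25. At an adjusted p of 0.05 with no fold limit, 2 of the 7 were higher and 0 lower, beside 9.49% and 26.5% of all tested genes. None of 10 STAT5 targets passed in limma, with 6 at an unadjusted p under 0.05, a limit that 46.4% of all tested genes met. At an adjusted p of 0.05 with no fold limit, 4 of the 10 were higher and 1 lower, beside 9.49% and 26.5%. Bcl2, the survival factor, was highest at 0.55 (limma adjusted p = 0.000387, under the fold limit, which it exceeded at 0.59 without WT replicate 3 and at 0.65 and 0.66 under the other scalings). Il2ra, the α chain of the IL-2 receptor, was lowest at -0.61 (limma adjusted p = 0.0215). The median was 0.19.

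Of 13 STAT6 targets, 9 were tested and 2 passed, both higher, beside 2.89% of all tested genes, while Stat6 itself lay at 0.959 times the WT level. At an adjusted p of 0.05 with no fold limit, 2 were higher and 2 lower, where all tested genes gave 9.49% and 26.5%. Those lower were Clec10a and Irf4 (-0.69, limma adjusted p = 0.0286). Pdcd1lg2, the gene of the checkpoint ligand PD-L2, rose from 6.85 ± 1.06 to 55.7 ± 6.12 CPM (log2 fold change 2.86, limma adjusted p = 7.10e-07). The other was Il4ra. Clec10a, a lectin of alternatively activated macrophages, was lowest at -0.84 (limma adjusted p = 0.0356, and 0.00422 without WT replicate 4), and the median of the list was 0.04.

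**Figure D5:**
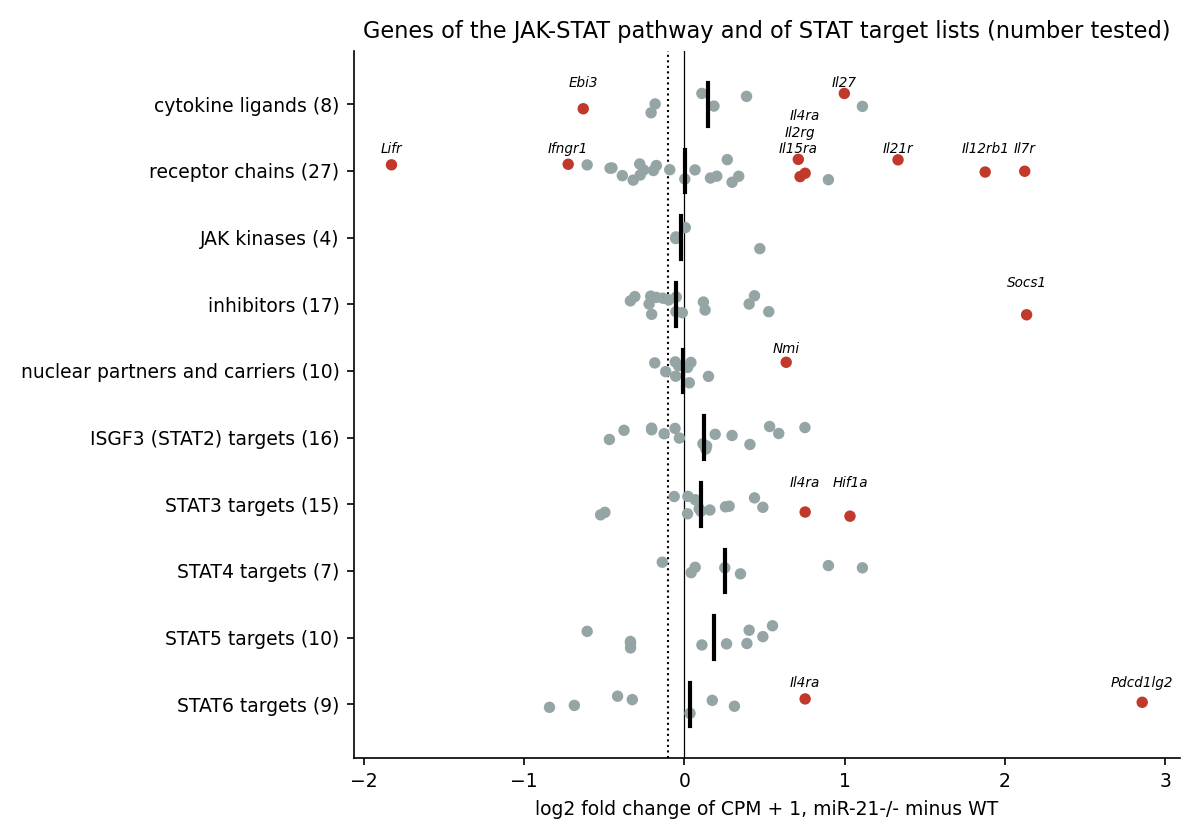
Log2 fold change of CPM + 1 (miR-21-/- minus WT, horizontal axis) of each tested gene of the JAK-STAT pathway lists and of the STAT target lists; red points passed an adjusted p of 0.005 with a fold change over 1.5, short vertical lines mark the list medians and the dotted line the median of all tested genes. The list medians lie between -0.05 and 0.25, and the widest changes are those of Pdcd1lg2, Socs1, Il7r, Il12rb1 and Lifr.

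Markers of other cells moved with the genotype beside these results. The summed level of 5 B cell markers was 11.4 to 17.6 CPM in WT and 3.84 to 11.3 CPM in miR-21-/- samples, that of 7 neutrophil markers 716 to 1099 and 531 to 699 CPM, and that of 5 epithelial and tumor cell markers 18.8 to 24.8 and 12.7 to 17.9 CPM, none overlapping. Epcam, Krt19, Mpo, Elane, Ncr1, Klrb1c and Siglech were under 1 CPM in all 8 samples. Other markers of the same lists were present, such as S100a8 (199 CPM in WT samples, 137 CPM in miR-21-/- samples) and S100a9 (369 and 237 CPM) of neutrophils and Krt8 (10.5 and 7.77 CPM) of epithelial cells. The neutrophil marker Ly6g was at 1.91 and 2.59 CPM (log2 fold change 0.31, limma adjusted p = 0.270). The sums of the T and NK cell, dendritic cell, macrophage and fibroblast and endothelial cell markers overlapped between genotypes, at 24.5 to 79.2, 11.2 to 38.4, 9672 to 11970 and 201 to 372 CPM over all samples. Single markers within these sums differed. Of the 5 B cell markers, 1 was tested, Cd79b, which fell from 12.7 to 4.03 CPM (limma adjusted p = 0.000375). Of the 7 fibroblast and endothelial cell markers, 3 passed the threshold, all lower, beside 4.23% of all tested genes, and the median log2 fold change was -1.22. Col1a1 fell from 22.7 to 4.53, Pdgfra from 15.7 to 3.45 and Pdgfrb from 4.93 to 1.52 CPM, while Pecam1, which makes up most of that sum, was at 192 and 218 CPM. Of the 11 T and NK cell markers tested, 1 passed, beside 7.12% of all tested genes. This was Cd4, which fell from 16.6 to 2.19 CPM (log2 fold change -2.35, limma adjusted p = 0.00206). Cd8a was the highest of that list, with WT samples at 1.92 ± 0.413 CPM and miR-21-/- samples at 6.71 ± 3.66 CPM (log2 fold change 1.28, limma adjusted p = 0.00804). Prf1 (1.16, limma adjusted p = 0.0261) and Nkg7 (0.91, 0.0377) were also higher at an adjusted p of 0.05, Cd8b1 and Gzmb had log2 fold changes of 0.69 each (0.0664 and 0.128), and Cd2 and Lck were at -0.32 and -0.06. Among dendritic cell markers none passed in limma, with 4 of 6 at an unadjusted p under 0.05, beside 46.4% of all tested genes. Clec9a was highest, at 2.54 and 8.18 CPM without overlap (log2 fold change 1.26, limma adjusted p = 0.00532), and Cd209a was lowest at -1.28 (0.0187). Of the 10 macrophage markers none passed in limma, and 2 had an unadjusted p under 0.05, a smaller share than the 46.4% of all tested genes. These were Adgre1 (log2 fold change -0.38, limma adjusted p = 0.00140) and Csf1r (-0.48, 0.00538), both without overlap between genotypes. Adgre1 had an adjusted p under 0.005, as did 14.3% of all tested genes. The part of these cells in the values above was not tested.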

How the data were processed

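RNA-Seq values of sorted TAMs (4 WT, 4 miR-21-/-) were used. The authors deposited CPM values per gene and sample, with 0.0001 added to each; their processing notes name STAR, Partek 7.0 and mm10, and the counting rule is not given in the sources used here. Coordinates follow GRCm38: of the symbols shared with GENCODE vM21, 97.1% had the same start. Depth was read from the steps of low values. Only 72.2% to 73.4% of values up to 20 reads were whole (within 0.02 of a read), so no count test was run.

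From the deposited values, log2(CPM + 1) was fitted (lmFit, eBayes with trend; limma 3.58.1, R 4.3.3), and p-values were adjusted by Benjamini-Hochberg over 13850 genes. Groups followed the genotype labels. On simulated data for this comparison, 85% of 100 genes with a log2 change of 1 and 96% of 100 with a change of 2 were recovered among 13850 genes, and 1 unchanged gene was called.

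The STAT genes and all lists were chosen with earlier results of these data known. By symbol there are 7 STAT genes, of which 6 are reported, and some listed genes and windows are not reported here. Named are the 6 genes, Mir21a, the JAKs, up to 6 genes past the threshold per list with the list's extremes, and 3 nearest genes each. Il2rg, Il15ra, Irf9, Myc, Socs3, Pim1, Nfil3, Irf4 and the marker genes given with values were named after their values were seen. Alternatives were other pseudocounts, filters, scalings, eBayes without trend, arrayWeights, a replicate block and leaving out each sample. Figures were drawn with matplotlib 3.10.9.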

Additional observations from a re-analysis of the deposited data

Results flagged for a closer look

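Of 64 groups of 4 samples (32 named genes in both genotypes), 7 held a sample far from the others, judged by its gap to the nearest sample over the range of the group, where chance gives about 1 in 20. Stat2 was one of them, with miR-21-/- replicate 1 at 197 CPM and the other miR-21-/- samples at 164 to 166 CPM. The same library was highest among miR-21-/- samples for 3 more genes, Rsad2 (154 CPM against 113 to 115), Oas2 (96.2 CPM against 70.5 to 71.0) and Hif1a (561 CPM against 425 to 445). Its title is the one that joins a pair of sample numbers. Il12rb1 stood apart in WT replicate 3 (21.2 CPM against 13.3 to 14.3), Lifr in WT replicate 2 (102 CPM against 62.1 to 67.9) and Il4ra in miR-21-/- replicate 4 (686 CPM, below 820.1 to 839).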

How the results depend on the processing

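Stat5b and Stat6 changed sign under the median of ratios (log2 fold change 0.069 and 0.052), with no other change of sign among the 6 STAT genes over the 17 alternative fits. The number of STAT genes past the threshold was 0 in each of these fits. At an adjusted p of 0.05 with no fold limit it was 3 with the settings of the report, and 2 with no filter on low values or without WT replicate 2, miR-21-/- replicate 2 or miR-21-/- replicate 3. It was also 3 under both other scalings, where Stat5a passed and Stat4 did not. Leaving out each sample in turn gave 0 to 9 pairs of STAT genes at an adjusted p of 0.05 and 7 to 12 pairs without overlap, both highest without miR-21-/- replicate 4. The alternatives were followed for 32 named genes, which leave out Mir21a, the nearest genes, the markers and genes named after their values were seen. Besides the STAT genes, the sign changed among these 32 for Jak1 under quantile normalization (-0.051), arrayWeights (-0.012) and on leaving out samples (-0.040 to 0.027). It also changed for Jak3 under the median of ratios (0.059). For Tyk2 it changed under the median of ratios (0.058) and on leaving out samples (-0.098 to 0.0016). The replicate numbers here follow the order of the samples, and those of the miR-21-/- samples do not follow the numbers in their titles. Same-numbered deviations had correlations of 0.08, -0.11, -0.14 and 0.22, and differently numbered ones -0.20 to 0.14. Whether the samples were paired in the experiment cannot be told from these values. With this numbering as a block, Stat3 had a log2 fold change of 0.36 with a limma adjusted p of 0.00717, and 0 STAT genes passed the threshold. Under that block 16 pathway genes passed in place of 14, with 922 calls over all genes in place of 986. Over all tested genes the calls were 400 higher and 586 lower, and 520 and 350 under the median of ratios, 491 and 337 under quantile normalization. A pseudocount of 10 gave 452 calls and no filter 522. Among the same 32 genes, no filter lost the calls of Il4ra, Il27 and Ebi3 (limma adjusted p = 0.00823, 0.00816 and 0.00763). A pseudocount of 10 lost those of Il27, Ebi3 and Nmi, whose log2 fold changes were then 0.45, -0.48 and 0.48. Lost calls of the other named genes, such as Il15ra and the markers, were not looked for. The cause of these shifts was not tested. The count tests planned for the case of whole reads were not run. Of the STAT genes, Stat4 had the fewest reads.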
